A study of Mus musculus with 6 samples.

Results

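The genes described here are 53 genes of the endoplasmic reticulum (ER) stress response and of the amino acid response driven by the transcription factor ATF4. They were chosen by name, with earlier results of these data known, and all 53 were measured among the 12393 genes of the array data. The platform annotation gave 51 of them under the listed symbol, while Ero1l and Ero1lb are listed under their current symbols Ero1a and Ero1b. Each gene is represented by the probe set with the highest mean over all 6 arrays.

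The RNA came from freshly isolated hepatocytes, the main cell type of the liver, which were put on plates coated with collagen and collected 24 h later with no treatment. One group of cells came from Alb/AEG-1 mice, which carry a transgene that overexpresses AEG-1, encoded by Mtdh, specifically in hepatocytes, and the others from wild-type mice, both of mixed strain B6/CBA. There were 3 Affymetrix arrays for each genotype. Samples are labelled as biological replicates, but no label ties each to its own mouse or culture, and the p-values cover the spread among these arrays, which may be technical. The age and sex of the mice, the transgene's species and the number of transgenic lines are not stated in the labels.

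At its brightest probe set Mtdh was at 10.72, 10.40 and 10.81 log2 units in transgenic hepatocytes, against 8.75, 8.78 and 8.64 in wild-type hepatocytes. That difference of 1.92 (limma, adjusted p = 2.04e-05) came from 1 of 6 Mtdh probe sets, and the other 5 gave differences between -0.27 and 0.24. The probe set at 0.24 also passed as higher when each probe set was tested (limma, adjusted p = 0.0495). None of 8 hepatocyte markers, among them Alb, Ttr and Hnf4a, passed the threshold (0 of 8 by limma, 1 at an unadjusted p under 0.05, which 28.9% of all genes reached). Summed linear signal of 7 sinusoidal endothelial markers was higher in transgenic cells, from 665.6 to 705.1 against 531.1 to 589.4 in wild-type cells. Of the 7, Clec4g (difference 0.50) and Kdr (0.41) passed the threshold as higher (28.6%, beside 15.9% of all genes passing in either direction). The other 5 did not pass, and Cdh5 (-0.11) was the only marker of the 7 with a difference below 0. The sum of 9 macrophage markers overlapped between genotypes (1030 to 1109 against 948.1 to 1044), with Marco and Ptprc higher and Cd163 lower. Sums of 7 stellate cell markers (866.3 to 929.4 against 818.0 to 886.1) and of 6 B and plasma cell markers (114.8 to 126.5 against 114.7 to 121.6) overlapped too. For 5 pancreatic acinar markers the sums were 1664 to 1702 in transgenic and 1479 to 1629 in wild-type cells, without overlap and mostly from Cela1, and none of the 5 passed (0 by limma, 0 at an unadjusted p under 0.05). The part of other cell types in the results below was not tested, and in bulk RNA fewer cells of a type and less RNA per cell cannot be told apart. The difference between 3' and 5' control probe sets, a sign of RNA integrity, averaged 0.10 in transgenic and 0.07 in wild-type arrays for Gapdh (two-sided exact permutation p = 0.6). For Actb it averaged 0.88 and 0.89 (exact permutation p = 0.5), where 0.1 is the smallest p that 3 arrays against 3 allow.

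The ER folds secreted and membrane proteins, which hepatocytes make in large amounts. When unfolded proteins accumulate, the sensors IRE1 (gene Ern1), ATF6 and PERK (gene Eif2ak3) are activated. IRE1 splices Xbp1 mRNA, and spliced XBP1 and cleaved ATF6 raise chaperones and the genes of ER-associated degradation (ERAD), which removes misfolded proteins. PERK, and the amino acid sensor GCN2 (gene Eif2ak4), phosphorylate the initiation factor eIF2, which lowers protein synthesis in general and favours translation of Atf4 mRNA. ATF4 then raises genes of amino acid synthesis, amino acid transport and tRNA charging. Splicing of Xbp1, cleavage of ATF6 and translation of Atf4 are not read by these values.

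Genes on both sides of the response were higher in transgenic hepatocytes, but not evenly. Of the 53 genes, 24 changed (45.3%, beside 15.9% of all 12393 genes): 20 were higher, 4 lower and 29 not past the threshold, an adjusted p of 0.05 by limma with Benjamini-Hochberg adjustment over all genes. The shares were 37.7% higher and 7.55% lower, beside 6.83% and 9.05% of all genes. The share of lower genes was thus near that of the whole array, which is a dimmer background. Only 6 of the 53 genes lay below the median of all gene means. With genes below that median left out, 953 genes were higher and 1354 lower, more than in the full set. Of the listed genes then left, 25 were higher and 4 lower. Shares among equally bright genes were not computed. The median difference, always transgenic minus wild type in log2 units, was 0.17 for the 53 genes and 0.01 for all genes. The 3 transgenic arrays all lay above the 3 wild-type arrays for 32 of the genes and below them for 5, beside 16.9% and 17.6% of all genes (34.5% in either direction). Without transgenic replicate 1, transgenic replicate 3, wild-type replicate 2 or wild-type replicate 3, 2 genes in place of 4 passed as lower. Over all genes, 540 in place of 846 passed as higher and 727 in place of 1121 as lower without transgenic replicate 1, and 741 as lower without transgenic replicate 3.

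**Figure D1:**
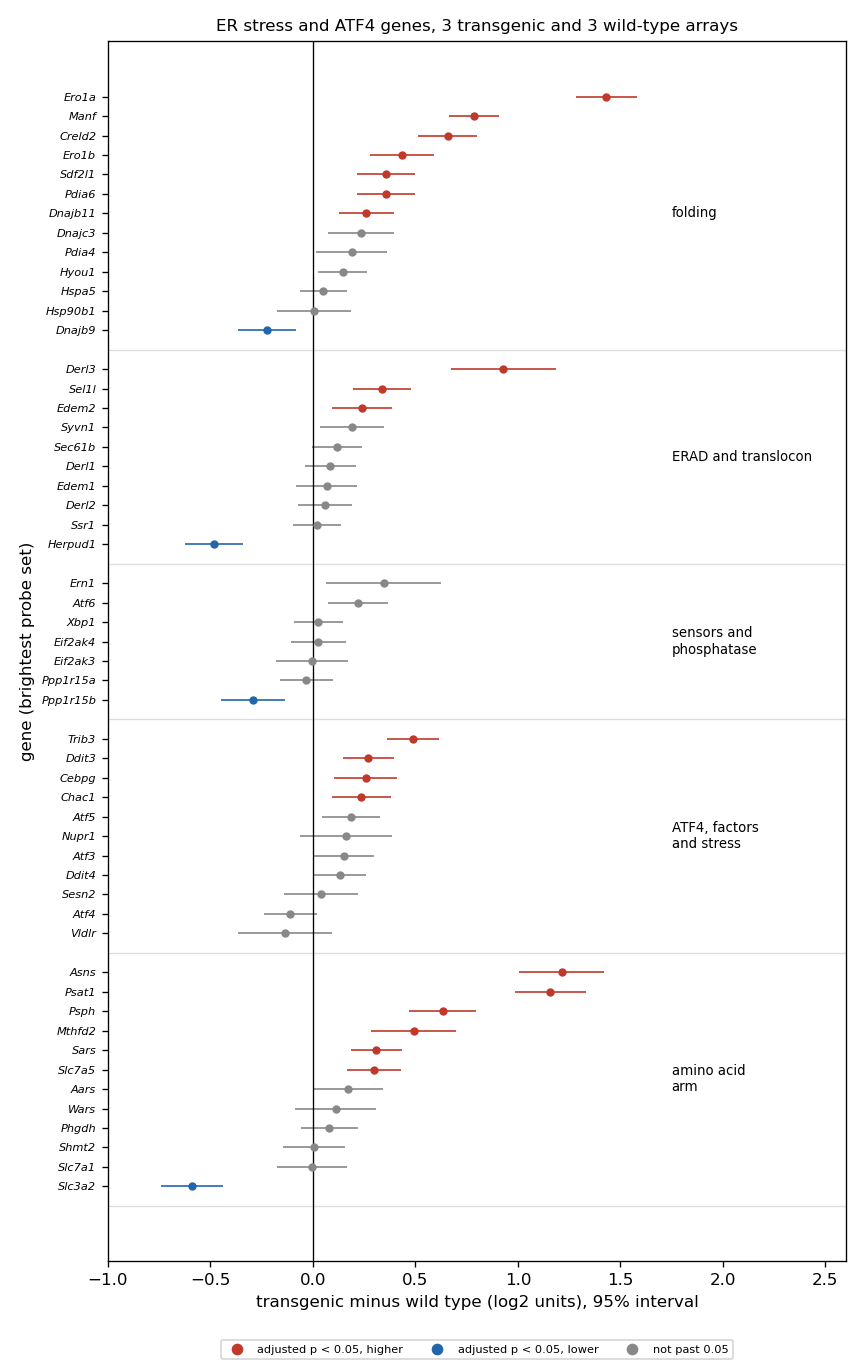
Difference between transgenic and wild-type hepatocytes in log2 units for each of the 53 genes (points) with its 95% confidence interval from limma (lines), grouped by role. Ero1a (1.43), Asns (1.21) and Psat1 (1.16) lie farthest to the right, and Slc3a2 (-0.59) and Herpud1 (-0.48) farthest to the left.

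On the side of ATF6 and XBP1, 10 of 23 chaperone, ERAD and translocon genes were higher and 2 lower. These are 43.5% and 8.7%, beside 6.83% and 9.05% of all genes. The median was 0.19 and the range from -0.48 to 1.43. Without any 1 array other than wild-type replicate 1, 1 gene in place of 2 was lower. On the side of ATF4, 10 of 23 genes were higher and 1 lower (43.5% and 4.35%). The median was 0.17 and the range from -0.59 to 1.21. The counts of higher genes on the sides were equal, and a difference between the sides was not tested. Genes were put on a side by their listed role, and which branch acted on a gene was not tested. Among the 7 genes of sensors and of the eIF2 phosphatase, 0 were higher and 1 was lower by limma, with a median of 0.03. This share past the threshold, 14.3%, was near the 15.9% of all genes. An unadjusted p under 0.05 was reached by 3 of the 7 and by 28.9% of all genes. With a variance trend and robust prior, 2 of these 7 passed as higher, and without transgenic replicate 2 or wild-type replicate 2, 1 did. The lower call was lost without transgenic replicate 1 or 3 or wild-type replicate 2 or 3.

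Promoter sequences are shown for the genes that carry known response motifs, because some carriers changed and others did not. The RefSeq promoter table (build GRCm38.p6) covers 250 bases before to 50 bases after a gene's start and held 46 of the 53 genes. The 7 others, Manf, Hyou1, Derl1, Atf6, Ppp1r15b, Slc7a5 and Wars, could not be searched for any motif. The ER stress response element (ERSE), which binds ATF6 together with NF-Y, was searched as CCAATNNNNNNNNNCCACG on both strands. It was found in 8 of the 46 genes (17.4%), against 37 of 27025 genes in the whole table (0.137%). The genes were listed for these responses, so a higher share than over all genes can follow from that choice alone. It is therefore no finding of these data, and the same holds for the motifs below. Its carriers Creld2, Derl3, Ero1b and Pdia6 rose, while its carriers Hspa5, Hsp90b1, Dnajc3 and Syvn1 did not pass the threshold. The windows below read 5′ to 3′ along the gene, with the fixed letters of the motif in capitals, first for the carriers that rose and then for the others.
Creld2, chr15:88819505-88819553, + strand: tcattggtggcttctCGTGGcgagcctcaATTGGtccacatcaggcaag
Derl3, chr10:75893227-75893275, + strand: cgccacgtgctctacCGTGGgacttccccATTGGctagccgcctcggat
Ero1b, chr13:12565667-12565715, + strand: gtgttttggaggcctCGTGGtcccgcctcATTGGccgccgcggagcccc
Pdia6, chr12:17266476-17266524, + strand: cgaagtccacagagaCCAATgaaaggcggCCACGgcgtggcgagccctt
Hspa5, chr2:34772010-34772058, + strand: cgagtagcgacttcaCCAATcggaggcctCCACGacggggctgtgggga
Dnajc3, chr14:118937812-118937860, + strand: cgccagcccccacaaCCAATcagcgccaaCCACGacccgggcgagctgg
Syvn1, chr19:6046517-6046565, + strand: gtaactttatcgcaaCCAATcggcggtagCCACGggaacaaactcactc
Hsp90b1, chr10:86705518-86705671, - strand: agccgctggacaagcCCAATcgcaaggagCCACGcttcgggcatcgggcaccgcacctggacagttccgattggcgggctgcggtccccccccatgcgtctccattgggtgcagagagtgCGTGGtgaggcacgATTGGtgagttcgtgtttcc
Hsp90b1 carries the motif at 2 places, and in Creld2, Derl3 and Ero1b it stands on the opposite strand, where it reads CGTGG first. The shorter ERSE-II, searched on both strands as ATTGG and CCACG with 1 base of any kind between them, was found in Herpud1 and Dnajb11, 2 of 46 genes, against 12 of 27025 (0.0444%). These 2 carriers moved in opposite directions, Herpud1 lower and Dnajb11 higher.

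The core of the C/EBP-ATF response element (CARE), which binds ATF4 paired with a C/EBP factor, was searched as TGATGNAA on both strands. It was found in 8 of 46 genes (17.4%), against 1219 of 27025 (4.51%). Of its carriers Asns, Chac1 and Trib3 rose, Herpud1 fell, and 4 did not pass, among them Atf3, Nupr1 and Vldlr. Windows are shown for the carriers whose motif lies before the start and that changed, and for Atf3 as a carrier that did not pass, with the fixed letters again in capitals. No 2 of the motif matches in these genes share a base.
Asns, chr6:7693210-7693247, - strand: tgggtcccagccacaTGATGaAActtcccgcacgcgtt
Chac1, chr2:119351034-119351071, + strand: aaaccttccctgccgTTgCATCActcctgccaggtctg
Herpud1, chr8:94386302-94386402, + strand: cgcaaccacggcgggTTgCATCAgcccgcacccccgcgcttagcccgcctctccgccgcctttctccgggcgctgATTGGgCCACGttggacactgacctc
Atf3, chr1:191183421-191183458, - strand: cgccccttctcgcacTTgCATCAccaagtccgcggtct
In Asns the core lies 23 to 16 bases before the annotated start, and in Herpud1 both CARE and ERSE-II are present. These matches describe letters in a window and not bound sites.

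Among the folding genes, 7 of 13 rose, 1 fell and 5 did not pass, with a median difference of 0.26. The largest difference was in Ero1a, whose product oxidises protein disulfide isomerases so that they can form disulfide bonds. Ero1a was at 10.04, 9.88 and 9.96 log2 units in transgenic hepatocytes, against 8.53, 8.47 and 8.58 in wild-type hepatocytes. The groups were far apart, and Ero1a rose 2.70-fold, a difference of 1.43 (SE 0.06, adjusted p = 8.51e-06). Its other 2 probe sets gave 0.85 and 1.48, both past the threshold when each probe set was tested. The paralogue Ero1b was at 9.79, 9.86 and 9.63 log2 units in transgenic hepatocytes, against 9.33, 9.33 and 9.33 in wild-type hepatocytes. Every transgenic array lay above the nearly identical wild-type arrays, and Ero1b rose by 0.43 (SE 0.07, adjusted p = 0.00438). Of its other 2 probe sets 1 rose, by 0.81, and the other, at low signal, gave 0.19 and did not pass (limma, adjusted p = 0.194).

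Manf, a stress-induced protein that binds BiP and can be secreted, was at 11.47, 11.47 and 11.46 log2 units in transgenic hepatocytes, against 10.64, 10.68 and 10.72 in wild-type hepatocytes. Its transgenic arrays were tightly grouped, and Manf rose 1.73-fold (0.79, SE 0.05, adjusted p = 6.54e-05). Creld2, a stress-induced ER protein with EGF-like domains, was at 9.04, 9.10 and 9.14 log2 units in transgenic hepatocytes, against 8.50, 8.46 and 8.36 in wild-type hepatocytes. Creld2 rose 1.58-fold (0.66, SE 0.06, adjusted p = 0.000359), with no overlap between genotypes. Sdf2l1, which works in a complex with the cochaperone Dnajb11, was at 8.87, 8.98 and 8.88 log2 units in transgenic hepatocytes, against 8.57, 8.49 and 8.61 in wild-type hepatocytes. It rose by 0.36 (SE 0.06, adjusted p = 0.00651). Pdia6, a protein disulfide isomerase, was at 11.07, 11.17 and 11.06 log2 units in transgenic hepatocytes, against 10.79, 10.68 and 10.76 in wild-type hepatocytes, and rose by 0.36 (SE 0.06, adjusted p = 0.00679). Dnajb11 itself, a BiP cochaperone, was at 10.02, 10.15 and 10.03 log2 units in transgenic hepatocytes, against 9.82, 9.78 and 9.82 in wild-type hepatocytes. The groups did not overlap. Dnajb11 rose by 0.26 (SE 0.06, adjusted p = 0.0205), a call lost without transgenic replicate 2 (adjusted p = 0.0672), wild-type replicate 2 (0.0647) or wild-type replicate 3 (0.0565).

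Neither of the central ER chaperone genes passed the threshold. Hspa5, which encodes BiP, the chief ER chaperone and the repressor of the sensors, was at 12.92, 12.91 and 12.92 log2 units in transgenic hepatocytes, against 12.87, 12.86 and 12.88 in wild-type hepatocytes. The groups did not overlap, but the difference was 0.05 (95% interval -0.06 to 0.16, adjusted p = 0.568). Hsp90b1, the ER member of the HSP90 family, was at 11.69, 11.74 and 11.75 log2 units in transgenic hepatocytes, against 11.55, 11.82 and 11.78 in wild-type hepatocytes. Its groups overlapped, with a difference of 0.01 (95% interval -0.18 to 0.19, adjusted p = 0.979). Hyou1, a nucleotide exchange factor for BiP, gave 0.15 and the disulfide isomerase gene Pdia4 gave 0.19, neither past the threshold, and Hyou1 gave -0.09 without probe sets that match several transcripts. Dnajc3, a cochaperone that also inhibits the kinase PERK, gave 0.23 (adjusted p = 0.0568). Of its 4 other probe sets 1 rose, by 0.68, and with the mean of all 5 probe sets Dnajc3 passed (0.30, adjusted p = 0.00375). Dnajb9, a BiP cochaperone that restrains IRE1, was at 9.74, 9.72 and 9.83 log2 units in transgenic hepatocytes, against 9.92, 10.04 and 10.01 in wild-type hepatocytes. Here the transgenic arrays were the lower ones, and Dnajb9 fell by 0.23 (SE 0.06, adjusted p = 0.0415). That call rested on all arrays but wild-type replicate 1: leaving out any of the other 5 gave an adjusted p from 0.0572 to 0.125. It was also lost after a second quantile normalization (adjusted p = 0.0525) and after median centring (0.0595).

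**Figure D2:**
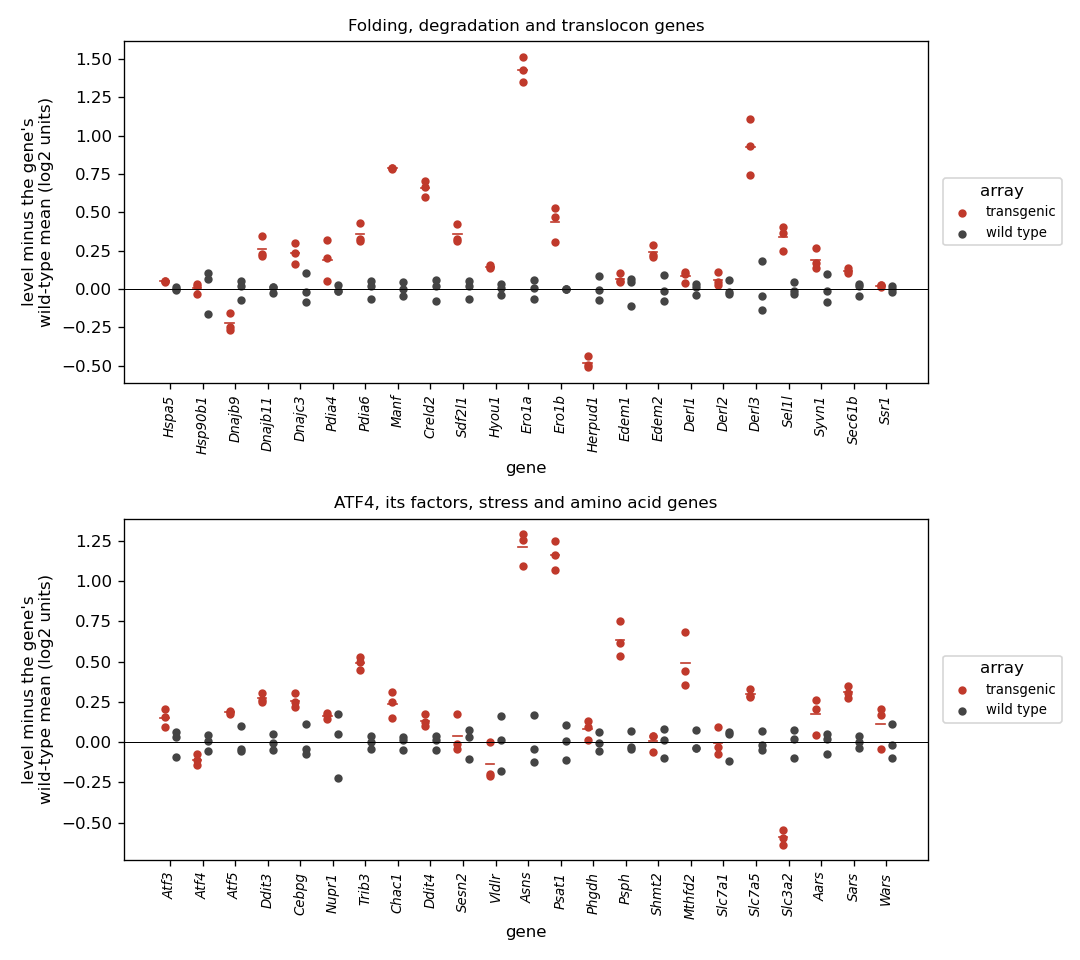
Level on each array minus the wild-type mean of the same gene, in log2 units, for the 23 chaperone, ERAD and translocon genes (top) and the 23 genes on the side of ATF4 (bottom), with transgenic arrays left (red, mean as a short line) and wild-type arrays right (dark). Transgenic arrays of Ero1a, Manf, Creld2, Derl3, Asns, Psat1 and Psph stand clear of the wild-type arrays, while those of Hspa5, Hsp90b1, Ssr1 and Shmt2 lie close to 0.

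Of 10 ERAD and translocon genes, 3 rose, 1 fell and 6 did not pass, with a median of 0.10. Derl3, a derlin of the channel through which misfolded proteins leave the ER, was at 7.86, 8.05 and 8.22 log2 units in transgenic hepatocytes, against 7.07, 6.98 and 7.29 in wild-type hepatocytes. The arrays of each genotype were spread, yet the groups did not overlap, and Derl3 rose 1.90-fold (0.93, SE 0.11, adjusted p = 0.00121). Derl3 is known as abundant in plasma cells, and of the 6 B and plasma cell markers 0 passed by limma, 2 at an unadjusted p under 0.05 (Cd79b, 0.23, and Jchain, -0.15). Their summed linear signal was 114.8 to 126.5 in transgenic and 114.7 to 121.6 in wild-type cells, and their part in the Derl3 result was not tested. Signal was low for Jchain, Tnfrsf17 and Pou2af1, with means at percentiles 14.6, 5.6 and 1 of all genes, so the sum says little about plasma cells. The other derlins, Derl1 and Derl2, gave 0.08 and 0.06. Sel1l, the partner of the ubiquitin ligase Syvn1, was at 8.44, 8.48 and 8.32 log2 units in transgenic hepatocytes, against 8.12, 8.06 and 8.05 in wild-type hepatocytes. Sel1l rose by 0.34 (SE 0.06, adjusted p = 0.00895), and 2 of its 3 other probe sets rose as well. Syvn1 gave 0.19 (adjusted p = 0.104), with no overlap between genotypes.

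Edem2, which helps trim mannose from misfolded glycoproteins, rose by 0.24 (SE 0.06, adjusted p = 0.0384), at 8.25, 8.32 and 8.24 log2 units in transgenic hepatocytes, against 8.12, 8.02 and 7.95 in wild-type hepatocytes. The Edem2 call held without wild-type replicate 1 but not without any of the other 5 arrays (adjusted p from 0.0789 to 0.121), and its relative Edem1 gave 0.07. Herpud1, which organises the Syvn1 ligase complex, was at 9.88, 9.95 and 9.87 log2 units in transgenic hepatocytes, against 10.37, 10.47 and 10.31 in wild-type hepatocytes. All transgenic arrays lay below all wild-type arrays, and Herpud1 fell by 0.48 (SE 0.06, adjusted p = 0.00158). Its second probe set fell by 0.42, and it was the only gene of the group to fall. Among translocon genes, which bring new proteins into the ER, Sec61b gave 0.12 and Ssr1 0.02, both not past the threshold. Ssr1 had another probe set that rose, by 0.50 (adjusted p = 0.00197).

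No sensor gene passed the threshold. Xbp1 was at 12.27, 12.24 and 12.28 log2 units in transgenic hepatocytes, against 12.20, 12.23 and 12.27 in wild-type hepatocytes. The groups overlapped, with a difference of 0.03 (95% interval -0.09 to 0.15), and the other 3 Xbp1 probe sets gave -0.06 to 0.03. Atf6 was at 7.80, 7.76 and 7.78 log2 units in transgenic hepatocytes, against 7.57, 7.65 and 7.46 in wild-type hepatocytes. Its groups did not overlap, and its difference of 0.22 had an adjusted p of 0.0512, just outside the threshold, and passed under 7 of 14 alternatives. Ern1 was at 6.10, 5.92 and 6.40 log2 units in transgenic hepatocytes, against 5.66, 5.91 and 5.80 in wild-type hepatocytes. The transgenic arrays of Ern1 were widely spread, and its difference of 0.35 had an adjusted p of 0.0994. The other Ern1 probe sets gave 0.01 and 0.10, and Ern1 passed without transgenic replicate 2 (adjusted p = 0.0441) and with the variance trend and robust prior (0.0413).

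The kinases that phosphorylate eIF2 gave differences of -0.01 for Eif2ak3 and 0.03 for Eif2ak4. Eif2ak3 was at 6.93, 6.77 and 6.67 log2 units in transgenic hepatocytes, against 6.86, 6.75 and 6.78 in wild-type hepatocytes. Its groups overlapped, as did those of Ppp1r15a, the stress-induced subunit that directs a phosphatase to eIF2. Ppp1r15a was at 8.86, 8.82 and 8.86 log2 units in transgenic hepatocytes, against 8.94, 8.88 and 8.83 in wild-type hepatocytes, a difference of -0.03 (95% interval -0.16 to 0.10). Ppp1r15b, the constitutive counterpart of Ppp1r15a, was at 8.64, 8.77 and 8.73 log2 units in transgenic hepatocytes, against 8.91, 9.03 and 9.08 in wild-type hepatocytes. Ppp1r15b fell by 0.29 (SE 0.07, adjusted p = 0.0237) at that probe set, while its other probe set gave 0.16, and the mean of both gave -0.06 (adjusted p = 0.530). The call was also lost without transgenic replicate 1 or 3 or wild-type replicate 2 or 3, at adjusted p from 0.0628 to 0.0862.

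Of 11 genes comprising ATF4, factors downstream of it and stress genes, 4 rose, 0 fell and 7 did not pass, with a median of 0.16. Atf4 was at 9.94, 10.01 and 9.98 log2 units in transgenic hepatocytes, against 10.10, 10.13 and 10.03 in wild-type hepatocytes. The transgenic arrays lay slightly lower, with a difference of -0.11 (95% interval -0.24 to 0.02, adjusted p = 0.239). Trib3, a pseudokinase induced by ATF4 and CHOP, was at 6.46, 6.51 and 6.54 log2 units in transgenic hepatocytes, against 5.97, 6.02 and 6.06 in wild-type hepatocytes. Trib3 rose 1.40-fold (0.49, SE 0.06, adjusted p = 0.000881), and its second probe set rose by 0.60. Ddit3, which encodes the stress factor CHOP, was at 7.93, 7.99 and 7.94 log2 units in transgenic hepatocytes, against 7.73, 7.63 and 7.68 in wild-type hepatocytes. The groups were apart, and Ddit3 rose by 0.27 (SE 0.05, adjusted p = 0.0134), a call lost without transgenic replicate 2 (adjusted p = 0.0501).

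Chac1, an enzyme that degrades glutathione, was at 7.44, 7.54 and 7.60 log2 units in transgenic hepatocytes, against 7.24, 7.31 and 7.32 in wild-type hepatocytes. Chac1 rose by 0.24 (SE 0.06, adjusted p = 0.0382), but any 5 arrays without transgenic replicate 2 or 3 or without any wild-type replicate gave an adjusted p from 0.0791 to 0.117, and array weights gave 0.0502. Cebpg, a C/EBP factor that pairs with ATF4, was at 8.53, 8.45 and 8.47 log2 units in transgenic hepatocytes, against 8.34, 8.16 and 8.19 in wild-type hepatocytes. It rose by 0.26 (SE 0.07, adjusted p = 0.0349), and this call was lost in every leave-out but that of wild-type replicate 1, at adjusted p from 0.0685 to 0.114. Of the 2 other Cebpg probe sets 1 rose, by 0.34, and the other gave 0.18 with overlapping groups (limma, adjusted p = 0.192). Without transgenic replicate 2, 1 of these 11 genes rose in place of 4, and without transgenic replicate 3, wild-type replicate 2 or wild-type replicate 3, 2 rose. Atf3, a stress-induced repressor and activator, was at 11.19, 11.30 and 11.25 log2 units in transgenic hepatocytes, against 11.16, 11.12 and 11.00 in wild-type hepatocytes. Its arrays did not overlap, and the difference was 0.15 (adjusted p = 0.165). The remaining genes were Atf5 (0.19), the mTORC1 inhibitors Ddit4 (0.13) and Sesn2 (0.04), the stress factor Nupr1 (0.16) and the lipoprotein receptor Vldlr (-0.14), none past the threshold.

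In the amino acid group 6 of 12 genes rose, 1 fell and 5 did not pass, with a median of 0.24. Asns, asparagine synthetase, was at 7.09, 7.06 and 6.90 log2 units in transgenic hepatocytes, against 5.68, 5.76 and 5.97 in wild-type hepatocytes. The lowest transgenic array stood well above the highest wild-type array, and Asns rose 2.32-fold (1.21, SE 0.09, adjusted p = 0.000102). Its second probe set rose by 1.45. Serine is made by Phgdh, Psat1 and Psph in this order, and the genes of that path differed. Phgdh gave 0.08 (95% interval -0.06 to 0.22), with overlapping groups. Psat1 was at 6.56, 6.64 and 6.46 log2 units in transgenic hepatocytes, against 5.28, 5.40 and 5.50 in wild-type hepatocytes. Psat1 rose 2.23-fold (1.16, SE 0.08, adjusted p = 6.06e-05), and its second probe set rose by 1.04. Psph was at 8.07, 7.94 and 7.85 log2 units in transgenic hepatocytes, against 7.39, 7.28 and 7.29 in wild-type hepatocytes. Psph rose 1.55-fold (0.63, SE 0.07, adjusted p = 0.000888). All 4 Phgdh probe sets of 1 symbol are of the kind that can match several transcripts, and 2 more name a second gene, so the Phgdh value is less certain.

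Serine feeds the mitochondrial one-carbon path, in which Shmt2 precedes Mthfd2. Shmt2 gave 0.01 (95% interval -0.15 to 0.16), while Mthfd2 was at 7.00, 7.34 and 7.09 log2 units in transgenic hepatocytes, against 6.61, 6.73 and 6.62 in wild-type hepatocytes. Mthfd2 rose by 0.49 (SE 0.09, adjusted p = 0.00865), with transgenic replicate 2 the highest, and its second probe set rose by 0.82. Slc7a5 and Slc3a2 encode the light and heavy chains of one transporter of large neutral amino acids, and they moved in opposite directions. Slc7a5 was at 6.44, 6.49 and 6.44 log2 units in transgenic hepatocytes, against 6.23, 6.14 and 6.11 in wild-type hepatocytes, and rose by 0.30 (SE 0.06, adjusted p = 0.0101). Slc3a2 was at 8.54, 8.58 and 8.49 log2 units in transgenic hepatocytes, against 9.15, 9.20 and 9.03 in wild-type hepatocytes, and fell by 0.59 (SE 0.06, adjusted p = 0.000766). For neither chain did the genotypes overlap, and each has 1 probe set. Slc7a1, a transporter of cationic amino acids, gave -0.0042 at low signal. Among tRNA synthetases Sars, for serine, was at 8.46, 8.50 and 8.43 log2 units in transgenic hepatocytes, against 8.19, 8.12 and 8.15 in wild-type hepatocytes. Sars rose by 0.31 (SE 0.05, adjusted p = 0.00704), and its second probe set rose by 0.25. The synthetase genes Aars, for alanine, and Wars, for tryptophan, gave 0.17 and 0.11 and did not pass, although 1 of the 3 other Wars probe sets rose, by 0.27.

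Several genes rest on more than 1 probe set, which gives a second measurement on the same arrays. Of the 24 genes past the threshold, 12 had several probe sets, and for 10 of these another probe set passed in the same direction and for 0 in the opposite one. The 2 without such support were Pdia6, whose second probe set gave 0.41 (adjusted p = 0.0751), and Ppp1r15b. Of 20 genes with several probe sets that did not pass, 3 had another probe set that rose, namely Dnajc3, Ssr1 and Wars.

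**Figure D3:**
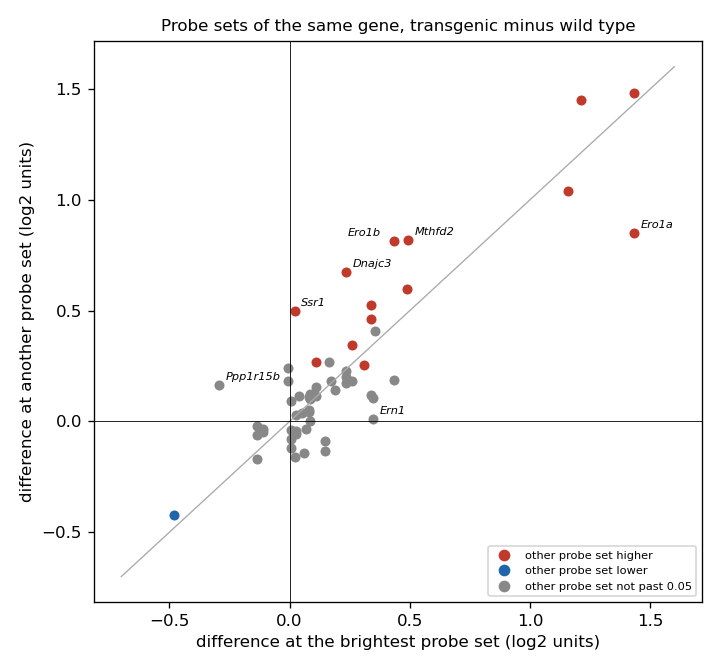
Difference at every other probe set of a gene (vertical) against the difference at its brightest probe set (horizontal), both transgenic minus wild type in log2 units, with the line of equal values in grey and colours for probe sets past an adjusted p of 0.05. Labelled genes differ by more than 0.3 between probe sets, among them Ssr1 (0.02 and 0.50) and Ppp1r15b (-0.29 and 0.16).

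Spread between arrays was small for most of the genes. The standard deviation ran from 0.004 to 0.24 with a median of 0.06 in transgenic arrays, and from 0.0007 to 0.20 with a median of 0.06 in wild-type arrays. The widest in transgenic cells was Ern1 and in wild-type cells Nupr1, both among the 6 genes whose mean lay under the median of all gene means (Ern1, Eif2ak4, Nupr1, Vldlr, Psat1 and Slc7a1).

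Other genes of the same pathways, on lists that do not overlap the 53 genes, are given for context. Of 48 measured genes among 52 other ER folding, translocation and degradation genes, 17 rose and 1, the protease gene Mbtps1, fell, with a median of 0.15. The shares were 35.4% and 2.08%, beside 6.83% and 9.05% of all genes. Sec23b, a coat protein of vesicles that leave the ER, rose by 0.59 (SE 0.07, adjusted p = 0.00118), and the ER membrane protein gene Wfs1 by 0.53 (SE 0.07, adjusted p = 0.00169). Kdelr2, a receptor that returns escaped chaperones to the ER, rose by 0.46 (SE 0.05, adjusted p = 0.00107), and Dad1, a subunit of the oligosaccharyl transferase, by 0.30 (SE 0.05, adjusted p = 0.00639). Of 25 measured genes among 32 others of the amino acid response, 6 rose and 3, Slc38a2, Gpt2 and Slc1a4, fell (24% and 12%), with a median of 0.14. The tRNA synthetase genes Gars, Yars and Lars rose by 0.36, 0.44 and 0.28, while Slc38a2, a neutral amino acid transporter, fell by 0.42 (SE 0.07, adjusted p = 0.00427).

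Chaperones of other compartments were set beside them. Of 9 mitochondrial chaperone and protease genes, 0 rose and 2 fell, with 3 at an unadjusted p under 0.05 by limma, and Hspd1 fell by 0.20 and Hspe1 by 0.25. Of 10 measured cytosolic heat shock genes 3 rose and 1 fell. Over all genes 6.83% were higher and 9.05% lower by limma, and 28.9% had an unadjusted p under 0.05. Dnajb1, an HSP40 cochaperone, fell by 1.29 (SE 0.06, adjusted p = 1.03e-05), while Hsph1 rose by 0.52, Hspa1a by 0.65 and Hspa1b by 0.73. Hspa1a and Hspa1b are near-identical genes, so their probe sets may read the same transcripts. Differences between these lists were not tested.

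**Figure D4:**
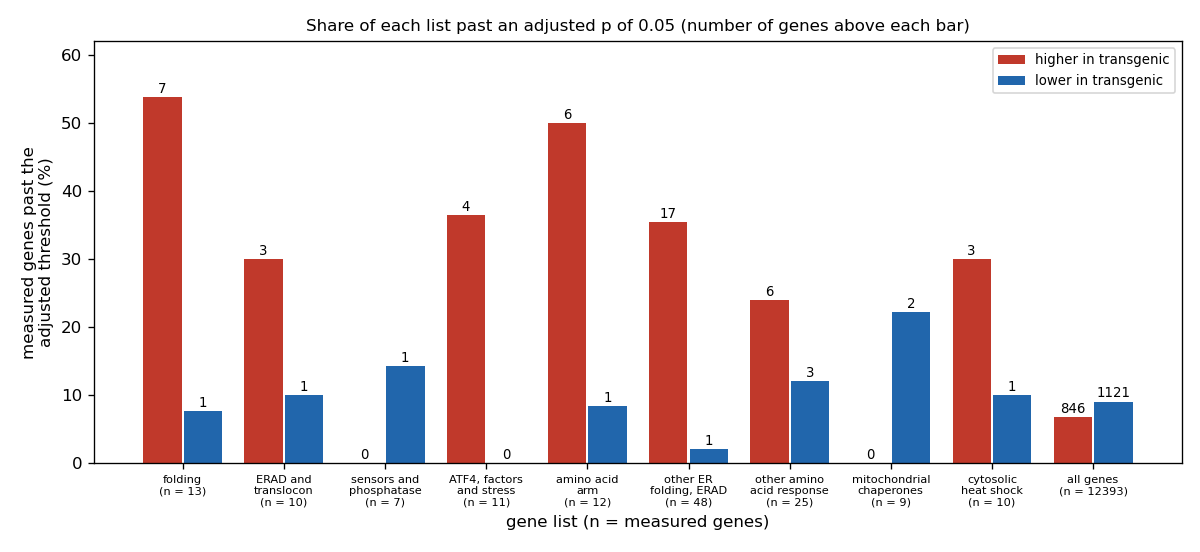
Share of the measured genes of each list past an adjusted p of 0.05 (vertical, percent), higher (red) or lower (blue) in transgenic hepatocytes, with the number of genes above each bar and all 12393 genes at the right. The folding genes (7 of 13) and the amino acid genes (6 of 12) have the tallest red bars, and the sensors and the mitochondrial chaperones have none.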

How the data were processed

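Expression was measured on 6 Affymetrix mouse arrays of hepatocyte RNA, 3 per genotype. The deposited table gives a log2 value for each probe set on each array; the submitters' processing notes name RMA and Affymetrix Expression Console. Neither a software version nor the set of arrays normalized as one batch is stated there. RMA subtracts background, equalises distributions between arrays and summarises probes, so values are relative to the rest of the transcriptome. Arrays have no read depth, so precision depends on how many there are.

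There were 22690 probe sets, including 64 controls. Of the others, 20380 carried 1 gene symbol, 691 several and 1555 none, and the last 2 kinds were left out. Each of 12393 genes was tested at its brightest probe set with limma (version 3.58.1, R 4.3.3; lmFit and eBayes, two-sided), with Benjamini-Hochberg adjusted p-values across these genes and a threshold of 0.05. The procedure was tested on simulated data. Of 200 genes given a difference of 0.5, 72% were recovered, with 7 false calls. At a difference of 1 it was 96.5%, with 8 false calls, and with no gene changed there were 0. In the real data 1967 genes passed and arrays may share effects, so these rates may not hold there. Smaller true differences were not simulated, so genes not past the threshold may still differ. Motifs were searched as exact letters in RefSeq promoters (GRCm38.p6), and no other coordinates were used; windows of some motif carriers are not reported here. The genes, lists and motifs were chosen with earlier results of these data known. By rule, array values are given for genes past the threshold and for 12 central genes whatever their p, and up to 4 genes with the smallest p are named from each context list. Probe set values come from a fit of all probe sets with 1 symbol. Alternatives covered gene representation, dim genes, scaling, the variance prior, array weights, a replicate block and leaving out each array.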

Additional observations from a re-analysis of the deposited data

How the results depend on the processing

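Of the 24 genes past the threshold, 17 (15 higher, 2 lower) passed in every alternative that gave a value, up to 14 for a gene, and 7 were lost in at least 1. Of the 29 others, 11 passed in at least 1 alternative and 18 in none. No gene past the threshold changed direction. Leaving out each array in turn gave 16 to 20 of the 53 genes higher and 2 to 4 lower. On the side of ATF6 and XBP1 it gave 8 to 10 higher and 1 to 2 lower, with folding genes at 6 to 7 higher and 0 to 1 lower. On the side of ATF4 it gave 7 to 10 higher and 1 lower, with ATF4, its factors and stress genes at 1 to 4 higher. Sensors and phosphatase genes gave 0 to 1 higher and 0 to 1 lower. Over all genes it gave 540 to 739 higher and 727 to 961 lower, and the construction leaves fewer samples.

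Chaperone, ERAD and translocon genes gave 1 lower, and folding genes 0 lower, after a second quantile normalization, after median centring and with the replicate block, where Dnajb9 was lost. Sensors and phosphatase genes gave 1 higher without dim genes, after quantile normalization, after median centring and with array weights, 1 higher and 0 lower with the mean of all probe sets, and 2 higher with the variance trend and robust prior. The cause was not tested. Testing every probe set counts probe sets and not genes: 32 of the 110 probe sets rose, 16 on each side, with 11 higher and 0 lower for folding, 5 higher and 2 lower for ERAD and the translocon, and 11 higher for the amino acid group. The sensor group's median was -0.01 without dim genes and 0.03 in the main setting.

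Whether equal replicate numbers mark paired samples is not stated in the labels. Deviations from the genotype means correlated at -0.01, -0.01 and 0.10 for numbers 1, 2 and 3. The value for number 3 was the highest of all pairs, while 2 of the 3 transgenic arrays correlated best with another number. With 3 arrays per genotype these correlations cannot decide whether samples were paired. With the replicate number as a block, 17 of the 53 genes were higher and 3 lower, and over all genes 640 were higher and 865 lower. The calls lost with the block were those of Dnajb11 (adjusted p = 0.0553), Edem2 (0.0677), Chac1 (0.0514) and Dnajb9 (0.0726).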
